A study of Mus musculus with 6 samples.

Results

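The insulin-like growth factor 1 (IGF1) axis was examined as 10 genes of a deposited mouse gene count table of 43346 genes: the ligand Igf1, its receptor Igf1r, the acid-labile subunit Igfals and the binding proteins Igfbp1 to Igfbp7. The genes were chosen by symbol, and each symbol matched 1 row. RNA was sequenced from liver tumours of mice that overexpress SULF2, an extracellular enzyme that removes sulfate groups from heparan sulfate chains. Tumours had been induced with diethylnitrosamine (DEN), a liver carcinogen. There were 3 libraries from animals with wild-type Gli1 (WT) and 3 from Gli1 knockout animals (KO), and both genotypes carried the SULF2 overexpression, which the titles write as Sulf2-TTR. GLI1 is a zinc finger transcription factor of the Hedgehog signalling pathway. The labels give neither the strain, age, time after DEN, the promoter of the transgene nor the deleted part of Gli1, and they do not say whether the tumours came from separate animals, so the p-values measure only the spread between these libraries. Normal liver, and tumours without the SULF2 transgene, are not among the groups.

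IGF1 is a peptide hormone that the liver makes under the control of growth hormone, through the growth hormone receptor and the transcription factor STAT5. In blood most of it travels in a complex with IGFBP3 or IGFBP5 and the acid-labile subunit, while smaller pools are bound by the other IGFBPs. Hepatocytes respond poorly to IGF1 because they carry little of its receptor. Insulin lowers Igfbp1 transcription through the FOXO factors, and fasting and stress raise it.

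Promoter windows of 300 bases, from 250 bases before to 50 bases after a gene start, were found for all 10 genes in a RefSeq table of build GRCm38.p6. Those of Igfbp1 and Igfals are printed because these genes of the insulin and growth hormone branches ranged widely between tumours, as described next, and because they alone among the 10 held the motifs searched. In the first sequence, on the plus strand at chr11:7197537-7197836, capitals mark the matches to CAAAANAA, a form of the insulin response element bound by FOXO factors, on either strand. In the second, on the plus strand at chr17:24877981-24878280, they mark the match to TTCNNNGAA, the palindrome bound by STAT factors.

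Igfbp1: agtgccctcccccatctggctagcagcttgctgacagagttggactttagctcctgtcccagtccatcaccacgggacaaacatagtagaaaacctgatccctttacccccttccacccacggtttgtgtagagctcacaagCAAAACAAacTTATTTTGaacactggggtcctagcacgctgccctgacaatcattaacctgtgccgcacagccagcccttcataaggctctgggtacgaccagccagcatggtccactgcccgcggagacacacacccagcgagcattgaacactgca

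Igfals: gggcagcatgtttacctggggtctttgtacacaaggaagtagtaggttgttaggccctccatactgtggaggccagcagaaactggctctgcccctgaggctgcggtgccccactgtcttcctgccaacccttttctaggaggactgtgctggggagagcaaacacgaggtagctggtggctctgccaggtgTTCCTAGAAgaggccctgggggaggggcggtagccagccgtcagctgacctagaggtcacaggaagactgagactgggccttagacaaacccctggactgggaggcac

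The Igfbp1 window held the insulin response motif 2 times, as CAAAACAA starting 108 bases before the gene start and, on the opposite strand, as TTATTTTG starting 98 bases before it. Neither match overlapped the other. RefSeq gives Igfals 3 windows, of which the printed one has the STAT motif as TTCCTAGAA starting 58 bases before its start, and another has it as TTCTCAGAA. The third, at 24878497-24878796, lacks the motif, and it is the one that holds the deposited start of Igfals, 24878770. Among 32851 windows of the same length, 7.95% held the insulin response motif and 8.30% the STAT motif. A match is a description of the letters in these windows and was not tested as a binding site.

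Total counts were 75205624 to 132979502 reads per library, and Gli1 itself had 10, 20 and 7 reads in WT and 4, 3 and 3 in KO, in the direction of the labels. WT replicate 3 and KO replicate 1 stood apart from the other libraries on the first principal component of all genes (42.7% of variance). Mouse Sulf2 itself ranged from 2.63 to 164 CPM over the 6 libraries, overlapping between genotypes, and whether it includes transgene reads is unknown here.

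Igfbp1 differed between tumours of one genotype more than nearly any other gene. This small binding protein is secreted by hepatocytes. Fold changes throughout are log2 values, KO minus WT. With all libraries they are given ± SE with n = 3 libraries per genotype. The edgeR FDR is printed for each of the 10 genes. For other genes it is printed only for some, and none was under 0.05 in edgeR. Normalized CPM, counts over the scaled library size, were 232.8, 67.1 and 1805 in WT replicates 1, 2 and 3, and 1106, 814.8 and 17.1 in KO replicates 1, 2 and 3. The highest library was thus a WT tumour and the lowest a KO tumour, and the genotypes overlapped throughout. The highest level was 105 times the lowest. The within-genotype standard deviation of its log2 CPM was 2.91, above that of 99.7% of the 18359 genes tested, whose median was 0.38. The log2 fold change, KO minus WT, was -0.12 ± 1.51, with a 95% interval from -3.72 to 3.49 and an edgeR FDR of 1.00. It became 2.11 without WT replicate 3 and 0.46 without KO replicate 3, so that even the sign rested on single libraries. In bulk tumours, fewer cells of a type and less RNA per cell cannot be told apart.

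**Figure D1:**
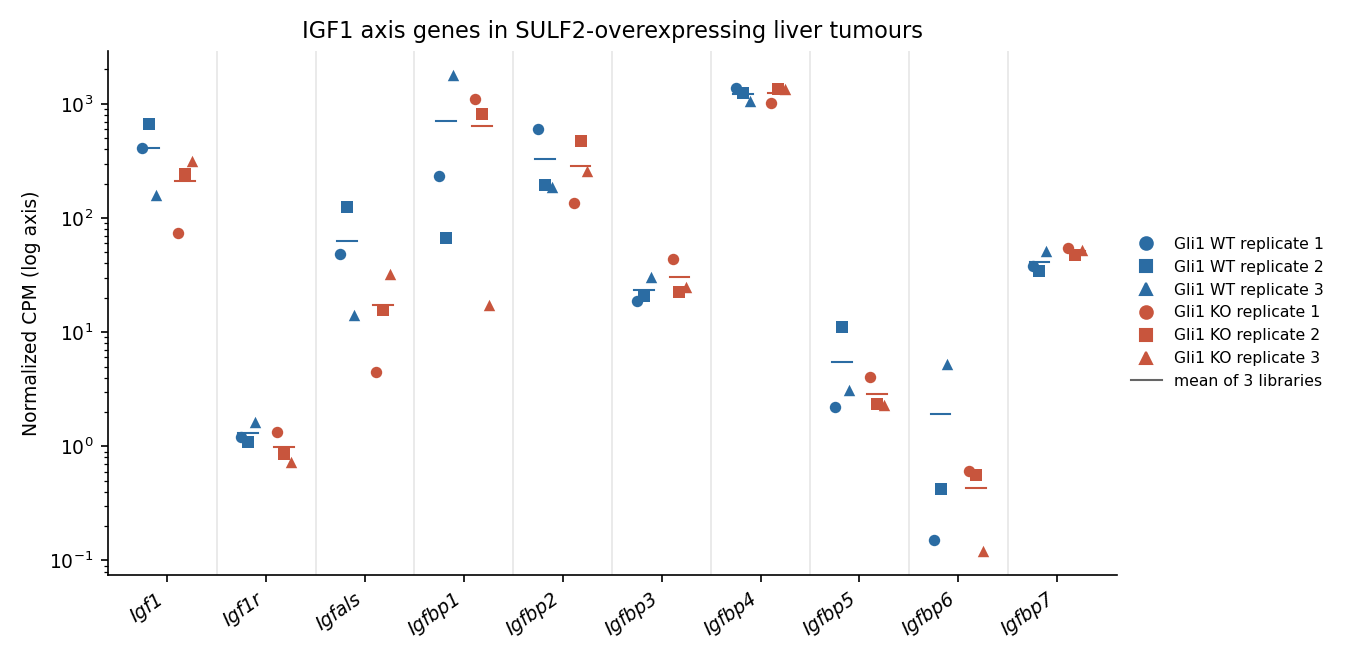
Normalized CPM (log axis) of the 10 genes in each library; colour gives the Gli1 genotype, symbol the replicate and the short line the mean of 3 libraries. Igfbp1 runs from 17.1 to 1805 CPM while Igfbp4 stays between 1020 and 1388.

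Igf1 and Igfals, the hepatocyte products that growth hormone induces, took the same order over the libraries of each genotype. Igf1 had 414.6, 663.6 and 158.9 CPM in WT replicates 1, 2 and 3, and 74.0, 245.4 and 315.7 in the KO replicates. Within each genotype it was lowest in WT replicate 3 and KO replicate 1, and KO replicates 2 and 3 lay inside the WT range. Igfals had 48.0, 124.7 and 14.2 CPM for the WT tumours, against 4.46, 15.5 and 32.0 for the KO ones. Its lowest libraries were again WT replicate 3 and KO replicate 1, and KO replicates 2 and 3 lay within the WT range. The ranges over all libraries were 8.97-fold for Igf1 and 28.0-fold for Igfals.

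Genotype differences of both were within the spread between tumours. The fold change was -0.96 ± 0.67 (95% interval -2.56 to 0.63) for Igf1 and -1.85 ± 0.93 (-4.06 to 0.37) for Igfals, with edgeR FDR 1.00 for each. Igfals had the smallest unadjusted edgeR p of the 10 genes, 0.0891. Both stayed negative when each library was left out, but they shrank to -0.44 and -0.84 without WT replicate 2, and Igf1 to -0.55 without KO replicate 1. The deposited RPKM, which also divide by gene length, allow the transcripts to be set against each other. Igfals RPKM per Igf1 RPKM was 0.54, 0.88 and 0.42 in WT and 0.28, 0.30 and 0.48 in KO, so the genotypes overlapped in KO replicate 3 and WT replicate 3. Igfbp1 RPKM per Igf1 RPKM ran from 0.35 in KO replicate 3 to 97.0 in KO replicate 1, and was 3.64, 0.66 and 73.8 in WT. Igf1 overlaps the antisense gene Igf1os and strand in the counting is unknown here, but Igf1os held only 0.20 to 0.50% as many reads as Igf1.

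Igf1r, the tyrosine kinase receptor of IGF1, had the lowest mean RPKM of the 10 genes in both genotypes. Its counts of 61 to 146 reads gave 0.74 to 1.64 CPM, with 1.20, 1.08 and 1.64 in WT and 1.34, 0.86 and 0.74 in KO. Levels of KO replicates 2 and 3 lay below all WT libraries and that of KO replicate 1 lay among them. Its change was -0.42 ± 0.37 (95% interval -1.31 to 0.47), with an edgeR FDR of 1.00. It was -0.22 without WT replicate 3 and -0.70 without KO replicate 1.

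Igfbp2 and Igfbp4, both secreted by hepatocytes, were abundant in every tumour but varied to different degrees. Igfbp4, which inhibits IGF action until it is cut by the protease PAPP-A, had 1388, 1241 and 1052 CPM for the WT tumours, against 1020, 1343 and 1353 for the KO ones. Libraries of both genotypes were interleaved within a 1.36-fold range. Its fold change of 0.01 ± 0.24 had the 95% interval -0.57 to 0.60 and an edgeR FDR of 1.00. Igfbp4 and Igfbp7 had within-genotype standard deviations of 0.22 and 0.23 on the log2 scale, below the median of all genes. Igfbp2 had 599.0, 193.1 and 186.8 CPM for the WT tumours, against 135.6, 468.3 and 255.9 for the KO ones. WT replicate 1 and KO replicate 2 were the high libraries, 1 of each genotype. The fold change of -0.19 ± 0.62 (95% interval -1.67 to 1.29, edgeR FDR 1.00) changed sign without WT replicate 1, at 0.60, or without KO replicate 1, at 0.16.

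**Figure D2:**
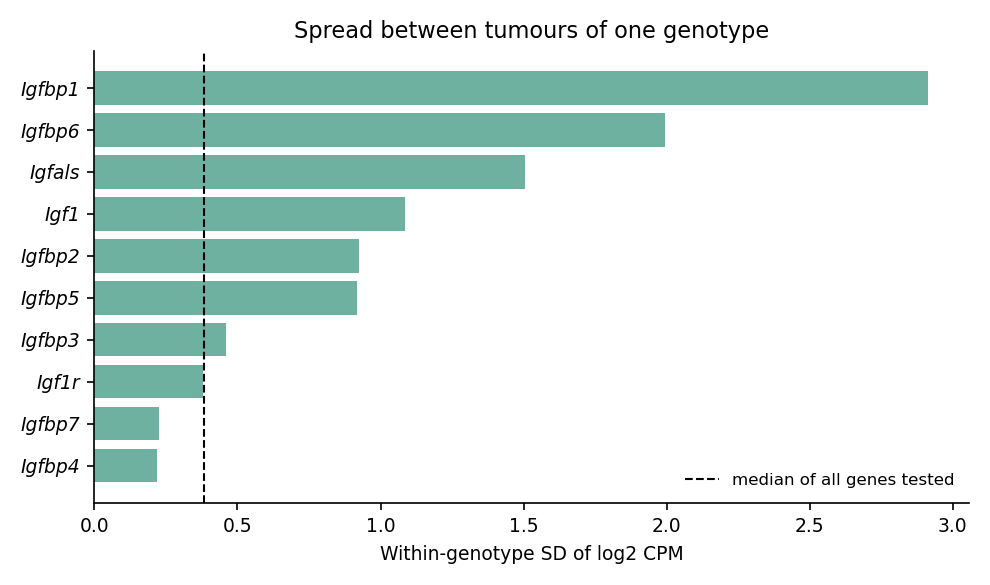
Bars give the pooled within-genotype standard deviation of log2 CPM of each gene (3 WT and 3 KO libraries), and the dashed line the median of the 18359 genes tested, 0.38. Igfbp1, at 2.91, and Igfbp6, at 1.99, extend farthest, and Igfbp4, at 0.22, is the shortest.

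Igfbp3, the main IGF carrier of blood, and Igfbp7, a matrix protein related to the IGFBPs that binds IGF weakly, are made in liver mostly by non-parenchymal cells. Igfbp3 had 18.8, 20.6 and 30.6 CPM for the WT tumours, against 44.2, 22.3 and 24.9 for the KO ones. Its highest library in each genotype was WT replicate 3 or KO replicate 1, the libraries lowest in Igf1. The genotype difference was 0.38 ± 0.32 (95% interval -0.38 to 1.15, edgeR FDR 1.00), and it was 0.03 without KO replicate 1. Igfbp7 had 37.8, 34.3 and 51.1 CPM for the WT tumours, against 54.5, 47.1 and 52.2 for the KO ones. Only WT replicate 3 reached the KO range. Its fold change came to 0.32 ± 0.19 (95% interval -0.14 to 0.78, edgeR FDR 1.00), and it stayed positive when each library was left out, from 0.21 to 0.51. The largest of these, without WT replicate 3, had an unadjusted edgeR p of 0.0164 and an FDR of 0.466. Igfbp7 overlaps the opposite-strand gene Polr2b at its 3' end, only from base 77349240 to 77349324. Over its whole length Polr2b had 61.6 to 112% as many reads as Igfbp7. Strand in the counting is unknown here, so reads at the shared end cannot be told apart. Stellate cells and fibroblasts are a source of Igfbp3, Igfbp5, Igfbp6 and Igfbp7. Their markers summed to 161.6, 191.6 and 442.4 CPM for the WT tumours, against 679.0, 304.5 and 302.9 for the KO ones. The sum was highest in the same 2 libraries as Igfbp3, with 8 of 10 markers positive in KO minus WT and none at 0. Its largest parts there were Reln, at 147 and 262 CPM in WT replicate 3 and KO replicate 1, and Col3a1, at 119 and 200. Lrat was instead lowest of its genotype in both, at 4.35 and 4.58 CPM, and Dcn was lowest of the KO libraries in KO replicate 1, at 49.5. The part of these cells in the levels of the genes was not tested.

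Igfbp5 and Igfbp6 were scarce, and 1 library set the WT mean of each. Igfbp5, which binds heparan sulfate and matrix, had 2.20, 11.0 and 3.11 CPM for the WT tumours, against 4.05, 2.33 and 2.32 for the KO ones. WT replicate 2 alone exceeded the KO range. Its fold change of -0.91 ± 0.64 (95% interval -2.43 to 0.62, edgeR FDR 1.00) became 0.12 without that library. Igfbp6, which prefers IGF2 to IGF1, had 12, 32 and 465 reads in WT and 64, 74 and 10 in KO, or 0.15, 0.42 and 5.23 against 0.61, 0.56 and 0.12 CPM. WT replicate 3 stood above every other library, and KO replicate 1 came next. The fold change of -2.16 ± 1.31 (95% interval -5.31 to 0.98, edgeR FDR 1.00) turned to 0.59 without WT replicate 3.

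For none of the 10 genes did the genotype difference pass the test. All 10 passed the low-count filter, and the quasi-likelihood test of edgeR called 0 of them at FDR 0.05, against 0.0% of the 18359 genes tested. At an unadjusted p under 0.05 there were 0 of the 10, against 3.62% of all genes. Without WT replicate 3 there were 2 of the 10 (Igfals and Igfbp7), among 1779 of 18783 genes, and without KO replicate 3 there was 1 (Igfals), among 507 of 19056. The groups were free of overlap in 0 of the 10, against 8.11% of all genes. DESeq2 called 0.317% of the 19548 genes it adjusted and 0 of the 10. Before adjustment in that tool, Igfals and Igfbp6 fell under 0.05, among 1090 genes that did. Of the 10, 3 were higher and 7 lower in KO, beside 8857 higher and 9502 lower of the 18359 genes tested. The median log2 fold change of the 10 was -0.30, beside -0.01 over all genes tested. The lowest adjusted p of any of the 10 under the alternatives run was 0.466, for Igfbp7. The intervals are wide: those of Igfbp1, Igfbp6, Igfals, Igf1 and Igfbp5 each include more than a 4-fold reduction. Without WT replicate 3 and KO replicate 1, 0 of the 10 genes passed FDR 0.05 in edgeR, and Igf1 was at -0.93 ± 0.33, Igfals at -1.85 ± 0.60, Igfbp1 at 1.47 ± 1.64, Igfbp6 at 0.27 ± 0.91 and Igfbp7 at 0.47 ± 0.18 (SE, n = 2 per group). The others were Igf1r at -0.51, Igfbp2 at -0.13, Igfbp3 at 0.27, Igfbp4 at 0.04 and Igfbp5 at -1.50. In that fit 3 of the 10 (Igf1, Igfals and Igfbp7) had an unadjusted p under 0.05, among 1238 of 18089 genes.

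**Figure D3:**
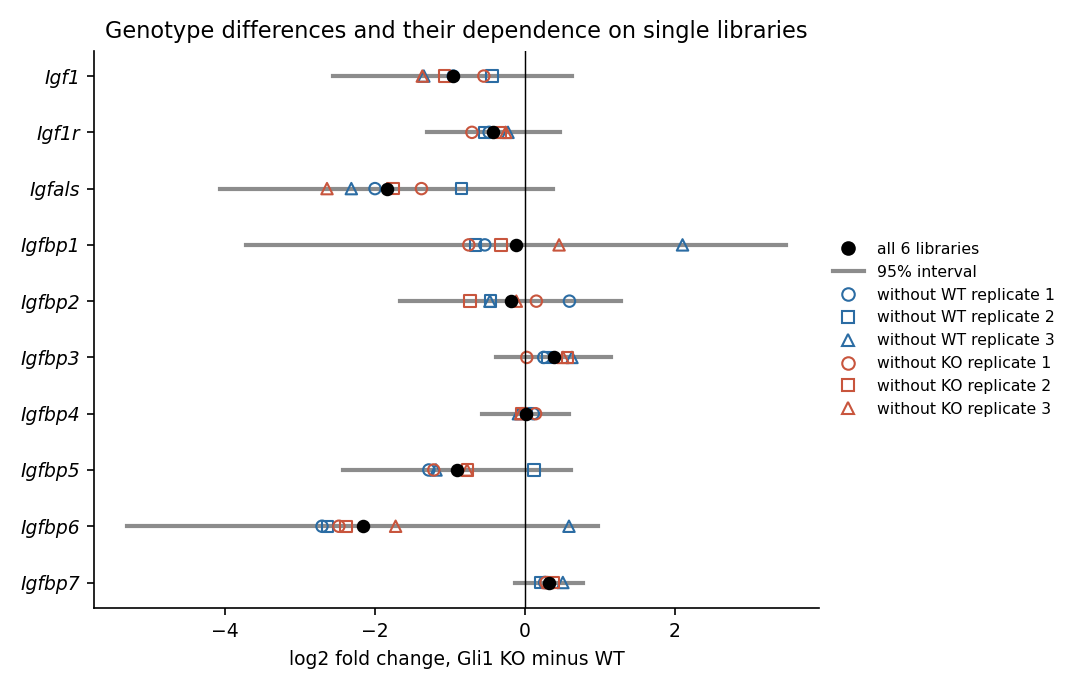
Log2 fold change, Gli1 KO minus WT, of each gene from all 6 libraries (black), its 95% interval (grey) and its value with each library left out (open symbols). Every interval includes 0, and Igfbp1 moves from -0.75 to 2.11 according to the library left out.

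Per length, the binding proteins differed by orders of magnitude, and the order of the means was the same at the top in both genotypes. Single libraries did not all keep that order, as Igfbp1 led only in WT replicate 3 and KO replicates 1 and 2. Mean RPKM in WT were 374.7 ± 516.9 for Igfbp1, 224.8 ± 25.6 for Igfbp4, 140.1 ± 94.3 for Igfbp2, 34.0 ± 21.8 for Igf1, 27.4 ± 6.14 for Igfbp7, 24.3 ± 23.0 for Igfals and 6.06 ± 1.76 for Igfbp3 (SD, n = 3). Igfbp6, Igfbp5 and Igf1r followed at 1.43 ± 2.10, 0.75 ± 0.69 and 0.24 ± 0.05 RPKM. In that order the ranges of neighbours overlapped except at the steps from Igfbp2 to Igf1 and from Igfbp3 to Igfbp6. In KO the order was Igfbp1 (396.9 ± 354.0), Igfbp4 (262.6 ± 34.6), Igfbp2 (143.0 ± 77.2), Igfbp7 (39.8 ± 4.79), Igf1 (19.9 ± 11.7), Igfbp3 (9.22 ± 3.97) and Igfals (7.70 ± 6.31), then Igfbp5, Igfbp6 and Igf1r, all below 0.66 RPKM in every KO library. There the neighbours free of overlap were Igfbp4 and Igfbp2 (225.0 against 224.9 at their nearest), Igfbp2 and Igfbp7, Igfbp7 and Igf1, and Igfals and Igfbp5.

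The makeup of the Igfbp transcript pool followed Igfbp1. Summed over Igfbp1 to Igfbp7 the level was 636.3, 394.5 and 1295 RPKM in WT and 1061, 1010 and 485.4 in KO. Igfbp1 made up 18.4, 9.43 and 74.9% of that sum in WT, and 66.5, 46.9 and 2.21% in KO. Per length it was the leading binding protein transcript in WT replicate 3 and KO replicates 1 and 2. Igfbp4 led in WT replicate 2 (60.2%) and KO replicate 3 (60.4%), and Igfbp2 narrowly in WT replicate 1 (39.1%, beside 37.9% for Igfbp4). By CPM, without length, Igfbp4 led in KO replicate 2 (49.8%, beside 30.2% for Igfbp1) and in WT replicate 1 (60.9%, beside 26.3% for Igfbp2). Igfbp3, Igfbp5 and Igfbp6 together remained a minor part in every library, with Igfbp3 at most 1.57%.

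**Figure D4:**
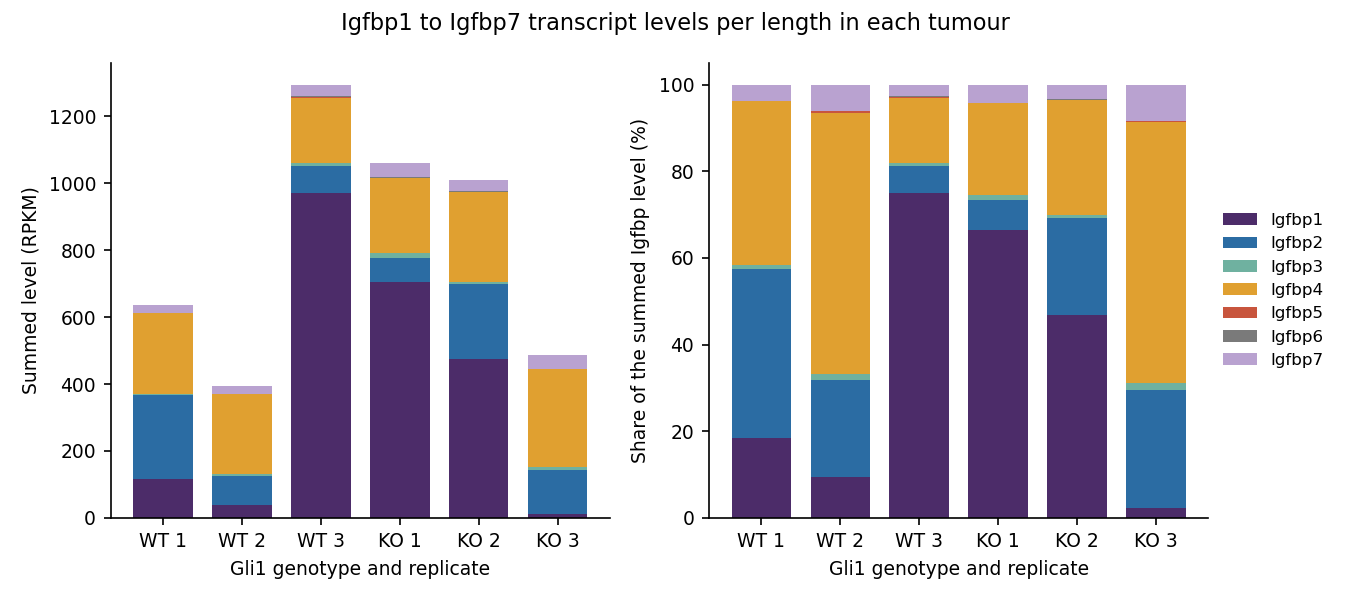
Stacked deposited RPKM of Igfbp1 to Igfbp7 in each library (left) and as a share of their sum (right). Igfbp1 takes 74.9% in WT replicate 3 and 2.21% in KO replicate 3.

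Of the 7 binding protein genes, 4 lie in neighbouring pairs that face each other tail to tail. On chromosome 11 the 3539 bases between Igfbp1 (ENSMUSG00000020429, 7197782 to 7202546, plus strand) and Igfbp3 (ENSMUSG00000020427, 7206086 to 7213923, minus strand) separate them, and on chromosome 1 there are 5457 bases between Igfbp2 (ENSMUSG00000039323, 72824503 to 72852474, plus strand) and Igfbp5 (ENSMUSG00000026185, 72857932 to 72874884, minus strand). Coordinates are as deposited and read as GRCm38. Neighbours did not hold a fixed ratio. Igfbp1 RPKM per Igfbp3 RPKM was 25.4, 6.70 and 121 in WT and 51.3, 74.9 and 1.41 in KO, and Igfbp2 per Igfbp5 ran from 57.1 to 883. The remaining genes lie apart, with Igf1 on chromosome 10 (87858265 to 87937042), Igf1r on 7 (67952859 to 68226780), Igfals on 17 (24878770 to 24882008), Igfbp4 elsewhere on 11 (99041244 to 99054392), Igfbp6 on 15 (102144362 to 102149511) and Igfbp7 on 5 (77349240 to 77408045).

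Growth hormone feedback inhibitors were lower in the KO libraries, though in edgeR only before adjustment. The list of receptor, kinase, STAT5 and feedback genes had 9 members tested, of which 0 passed FDR 0.05 and 5 had an unadjusted p under 0.05, all lower in KO, where 2.02% of all genes were. In 4 of the 9, all KO libraries lay below all WT libraries, where 3.96% of all genes did. The median log2 fold change of the 9 was -1.19. This list, like the others, was chosen with earlier results of these data known, so its shares are a description and not a test. Socs2, the STAT5-induced inhibitor of growth hormone signalling, had 33.9, 70.4 and 41.5 CPM for the WT tumours, against 7.91, 4.47 and 15.0 for the KO ones (-2.41 ± 0.50, edgeR FDR 1.00). Cish, another STAT5-induced inhibitor, had 21.5, 47.9 and 29.6 CPM for the WT tumours, against 13.0, 9.43 and 21.0 for the KO ones (-1.19 ± 0.40, edgeR FDR 1.00). KO lay below WT in every library for both, although by little for Cish. DESeq2 called Socs2 (adjusted p = 0.00241) and Socs3 (adjusted p = 1.02e-13), but not Cish. Socs3, an inhibitor induced through STAT3, was at -2.77 ± 0.27 with an FDR of 0.407 in edgeR. With each library left out Socs2 ran from -2.97 to -2.05, Cish from -1.55 to -0.82 and Prlr from -2.73 to -1.17. The prolactin receptor Prlr, with all libraries, was at -2.16 ± 0.74, overlapping between genotypes, and Socs1, under 1 CPM, at -1.41 ± 0.59, or -0.71 without WT replicate 3.

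The receptor Ghr did not share the separation of Socs2. It had 304.9, 402.6 and 131.2 CPM for the WT tumours, against 124.8, 206.0 and 234.0 for the KO ones, the same order of libraries as Igf1 and Igfals within each genotype. Its fold change of -0.57 ± 0.45 had an edgeR FDR of 1.00. Jak2, Stat5a and Stat5b, which relay the signal, had -0.03 ± 0.27, 0.20 ± 0.24 and 0.11 ± 0.15. Within each genotype, Socs2 and Igf1 were both highest in the same library, WT replicate 2 and KO replicate 3. Their lowest libraries differed, being WT replicate 1 and KO replicate 2 for Socs2 but WT replicate 3 and KO replicate 1 for Igf1. WT replicate 3 had 41.5 CPM of Socs2, and KO replicate 3 had 15.0. A link between the levels of Socs2 and Igf1 was not tested.

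**Figure D5:**
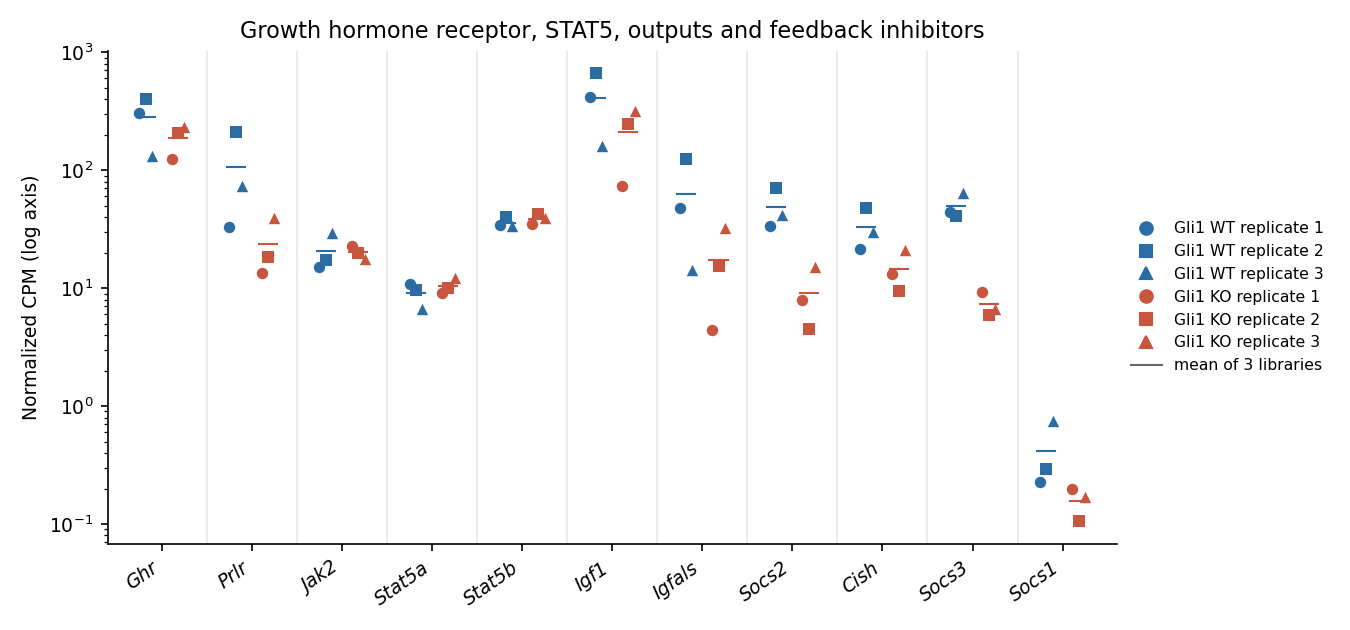
Normalized CPM (log axis) of growth hormone pathway genes in each library, with colour for genotype, symbol for replicate and a short line for the mean of 3. Socs2, Cish, Socs3 and Socs1 separate by genotype, whereas Ghr, Igf1 and Igfals overlap; none passed edgeR's adjustment.

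Over all lists, the growth hormone list included, 0 of 49 pathway genes tested passed FDR 0.05 in edgeR, and their median log2 fold change was -0.02. Among other ligands and receptors, 3 of 5 tested were positive. Igf2, a fetal growth factor, had at most 3.81 CPM (-0.47 ± 0.84), and Igf2r, which clears IGF2, had 39.0 to 86.6 CPM (0.32 ± 0.35). Leaving out KO replicate 1 put Igf2r at 0.09, and leaving out WT replicate 3 put it at 0.69. Among IGFBP proteases and their inhibitors, 3 of 6 were positive, with the PAPP-A inhibitor Stc2 at 1.20 ± 0.61, under 1 CPM, and the serine protease Htra1 at 0.63 ± 0.48. Without KO replicate 1 they were at 0.73 and 0.20, while leaving out WT replicate 3 put Htra1 at 1.11. Pappa and Pappa2, whose products cut IGFBPs, had at most 0.19 CPM and were not tested. The related inhibitor Stc1, chosen after its values were seen, had 7.17 CPM in WT replicate 3 and 7.57 in KO replicate 1 but 0.21 to 0.81 in the other libraries.

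Of 17 receptor substrate and PI3K-AKT genes tested, 9 were positive, with the insulin receptor substrate Irs1 at 0.60 ± 0.29, or 0.37 without WT replicate 2, overlapping between genotypes. Of 10 FOXO and insulin-repressed genes, 5 were positive. The gluconeogenic enzyme G6pc had 20.2, 72.1 and 49.0 CPM for the WT tumours, against 76.6, 108.8 and 107.6 for the KO ones (1.05 ± 0.44), with KO above WT in every library, and Sesn1 was at -0.39 ± 0.19. Without WT replicate 1 G6pc was at 0.69, and without WT replicate 2 Sesn1 was at -0.25. The latter did not overlap either, being lower in KO. Irs2, chosen after its values were seen, had 12.8, 11.8 and 36.1 CPM for the WT tumours, against 9.10, 14.9 and 4.25 for the KO ones. Its highest and lowest libraries were those of Igfbp1, but KO replicate 1, high in Igfbp1, was low in Irs2. The gluconeogenic enzyme Pck1 had 3961, 2816 and 2778 CPM for the WT tumours, against 977.5, 3721 and 2010 for the KO ones, lowest in a library high in Igfbp1. The IGF2 mRNA-binding proteins Igf2bp2 and Igf2bp3, at -0.57 ± 0.43 and -0.16 ± 0.55, stayed under 3 CPM, and Igf2bp1 was not tested.

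As a description of likeness, the 3 genes with the highest Pearson r of log2 CPM over the 6 libraries were listed for each gene, among 13872 candidates of mean CPM at least 1. With so few libraries and so many candidates, all the r values were high, from 0.966 to 0.999. All r values rest on the same 6 libraries, which are of both genotypes and unequal depth. Igf1 was most like the kynurenine formamidase Afmid, the tyrosine-breakdown enzyme Fah and Mmd, and Igfals like Ahcyl1, Ankrd61 and Rhobtb2. Igfbp1 was most like the interferon-inducible GTPase Iigp1, Rbm18 and Strn. Igfbp3 was most like Hydin, AU021092 and the collagen chain Col6a1, and Igf1r like the endothelial receptor Tek, Alpk1 and Fbxo22. For Igfbp2 the genes were Wdr11, Pglyrp2 and Vwa3b, for Igfbp4 Gm15135, Fam188b and Ufsp1, and for Igfbp5 Eif3f, Fetub and Rab2b. For Igfbp6 they were Prrc2c, Nol10 and Nop14, and for Igfbp7 Gm5809, Tuba1b and Gm5549.

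All 8 hepatocyte markers were present in every library, and 7 of the 8 were lower in KO. Their summed level, mostly Alb, was 151462 to 193825 CPM over the WT tumours, against 135960 to 156903 over the KO ones. The 8 endothelial markers summed to 259.2 to 309.2 CPM over the WT tumours, against 182.3 to 237.4 over the KO ones. Of these, 6 were lower in KO, while Pecam1 and Cdh5 were at 0.01 and 0.07. The 8 Kupffer cell markers summed to 116.8 to 402.0 CPM over the WT tumours, against 70.8 to 149.2 over the KO ones. Of these, 7 were lower in KO, while Cd68 was at 0.20. No marker of either list was at 0 in a library. The 6 cholangiocyte markers summed to 39.0 to 480.8 CPM over the WT tumours, against 75.4 to 471.6 over the KO ones, mostly Spp1, with Cftr at 0 in KO replicate 3, and the 5 mesothelial markers to at most 1.49 CPM, 3 of them at 0 in some library. The part of these other cell types in the levels of the 10 genes was not tested.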

How the data were processed

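RNA sequencing of 6 liver tumour libraries, 3 Gli1 WT and 3 Gli1 KO by their titles, was analysed from 1 table with a raw read count, an RPKM value and a gene length per gene and library. The tools named, without roles, per the submitters' processing notes are HTSeq, TopHat2 2.0.6 and bcl2fastq, and the builds named are the human hg19 and GRCh37. The deposited identifiers are mouse, and 84.2% of the 42462 shared with GENCODE M21 (GRCm38) have the same start. Whether counting used strand is not given in the sources at hand. RPKM as deposited had been scaled by the authors to the deposited length and to a library total 12.6 to 19.0% above the summed counts. They were used to compare genes and to give the summed Igfbp level of each library, and they entered no test.

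The deposited count columns went into edgeR 4.0.16 under R 4.3.3 (filterByExpr, TMM, robust quasi-likelihood test, two-sided, Benjamini-Hochberg adjustment over all 18359 genes kept, FDR 0.05). Normalized CPM use TMM-scaled library sizes. Intervals are at 95% and use edgeR's moderated degrees of freedom. The procedure was tested on simulated data. The within-genotype standard deviation is pooled over both genotypes, from log2 CPM (prior count 2). Alternatives were RLE factors, DESeq2 1.42.0, limma voom 3.58.1, other filters, removal of the 10 most counted genes, blocking on replicate number, adjustment for the number opening the sample description (under 2000 or above 3900), FDR 0.1, each library left out and, added after seeing the data, WT replicate 3 and KO replicate 1 left out together. All alternatives for pathway genes were likewise added after seeing the data.

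All 66 listed genes and 44 of 45 markers matched a deposited symbol, and Adgre1 matched by identifier. All 10 axis genes were named, with the 2 pathway genes of smallest p per list and any with an unadjusted p under 0.05, except 1 gene that is not reported here. The axis genes and all lists were chosen with earlier results of these data known. Ghr, Jak2, Stat5a, Stat5b, Pck1, Pappa, Pappa2, Igf2bp1, Stc1 and Irs2 were named beyond that rule.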

Additional observations from a re-analysis of the deposited data

How the results depend on the processing

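No alternative called any of the 10 genes. DESeq2 called 62 genes of the whole table, among them 2 pathway genes (Socs3 and Socs2), where edgeR called 0, and all other alternatives, FDR 0.1 among them, called 0. Leaving out each library called 0 to 0 genes, and the log2 fold changes then ran from -0.75 to 2.11 for Igfbp1, -0.73 to 0.60 for Igfbp2, -0.085 to 0.14 for Igfbp4, -1.28 to 0.12 for Igfbp5, -2.71 to 0.59 for Igfbp6, -1.10 to 0.32 for Igf2 and -0.98 to 0.14 for Igf2bp3, each changing sign. The other 5 axis genes, Igf1, Igf1r, Igfals, Igfbp3 and Igfbp7, kept their sign under every alternative run. Same-numbered libraries did not deviate together over all genes (correlations of deviations -0.29, 0.18 and -0.34 for replicates 1, 2 and 3). With the replicate block Igfbp1 became 1.27, with the covariate for the number in the sample description 0.53, and without WT replicate 3 and KO replicate 1 together 1.47, while Igfbp6 became 0.27 in the last. Igfbp6 was -0.48 with the block, -0.63 with the covariate and -0.98 with limma voom, and Igfbp5 -0.58, -0.54 and -0.58. Igfbp2 was -0.07 with the block and Igfbp1 -0.36 with limma voom. The causes were not tested. The block called 0 genes, as did the fit without it. Igfbp6 had no value under the filter of 1 CPM in 3 libraries. By CPM, which gives long transcripts more weight by construction, Igfbp4 was 57.4% of the KO Igfbp sum in place of 36.1% and 57.9% of the WT sum in place of 37.7%, Igfbp7 was 1.83% in WT and 2.37% in KO in place of 4.16 and 5.33%, and Igfbp5 and Igfbp6 were 0.131 and 0.0178% in KO. With 3 libraries per genotype, the printed intervals give the sizes of difference that these data leave possible.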
